A study of Mus musculus with 48 samples.

Results

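The 10 genes described here are negative regulators of the pathway that runs from growth factor receptors through Ras to the MAP kinases. They are the dual specificity phosphatase genes Dusp1, Dusp2, Dusp4, Dusp5, Dusp6 and Dusp10, the Sprouty genes Spry1, Spry2 and Spry4, and Errfi1. Their probe sets were found by symbol, as all those annotated to one of these genes. This gave 16 probe sets for 10 of the 18193 genes that had a probe set with a single symbol. Dusp10, Spry2 and Errfi1 had 2 probe sets each, Spry4 had 4 and the other genes 1. Each gene was followed through its brightest probe set on average, and the remaining ones are described separately.

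RNA was measured on 48 Affymetrix arrays from C2C12, an established mouse myoblast line that leaves the cell cycle and fuses into myotubes when serum is lowered. There were 16 groups of 3 arrays, and each triplicate came from successive passages of the line. The growth medium, DMEM with 20% fetal bovine serum, was sampled 24 h before the change of medium (−24 h) and at 0 h. Differentiation medium, DMEM with 2% horse serum, was sampled at 0.5, 1, 1.5, 2, 3, 6, 9, 12, 24, 48, 96 and 144 h. In 2 further groups 50 µM cycloheximide, which blocks protein synthesis, was added 1 h before the change of medium. Cells taken at 1 h had then been in the drug for 2 h, and those taken at 3 h for 4 h. All groups came from this one line, and no cells kept in growth medium beyond 0 h and no drug-treated cells at 0 h were analysed here. The effects of lower serum, of the medium change itself and of time in culture therefore cannot be told apart.

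MAP kinases are switched on by phosphorylation of a threonine and a tyrosine, and the dual specificity phosphatases remove both phosphates. Many of these phosphatases, the Sprouty proteins and Errfi1 are made in response to the signal that they limit, so their transcripts form part of negative feedback loops. DUSP1, DUSP2, DUSP4 and DUSP5 act in the nucleus and DUSP6 acts on ERK in the cytoplasm, while DUSP10 prefers the stress kinases p38 and JNK. Sprouty proteins limit Ras and ERK signalling below receptor tyrosine kinases, and Spry1 is known from quiescent muscle stem cells. ERRFI1 binds and inhibits the kinase domain of epidermal growth factor receptors. In myoblasts, ERK signalling from serum growth factors favours proliferation, and p38 favours differentiation.

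Promoter windows in the RefSeq table (GRCm38.p6), which run from 250 bases before to 50 bases after an annotated transcription start, were found for 8 of the 10 genes. Errfi1 had 2 windows, which makes 9 in all, and Dusp4 and Spry4 had no entry used here. The windows were searched on both strands for the cyclic AMP response element (CRE, TGACGTCA), its core (TGACG), the AP-1 site (TGANTCA), the ETS site (CCGGAA), the CArG box bound by serum response factor, and the E-box CAGCTG. A core also lies inside every full CRE. The 250 bases before the start are shown, 5′ to 3′ on the strand of the gene, for the 3 genes that rose at 1 h and for Dusp2, the gene with the largest response to cycloheximide. Capitals mark every match to a motif searched. The windows lie at chr17:26508473-26508722 (minus strand, Dusp1), chr19:53528895-53529144 (plus strand, Dusp5), chr4:150854820-150855069 (plus strand, the second Errfi1 start) and chr2:127335909-127336158 (plus strand, Dusp2).
Dusp1: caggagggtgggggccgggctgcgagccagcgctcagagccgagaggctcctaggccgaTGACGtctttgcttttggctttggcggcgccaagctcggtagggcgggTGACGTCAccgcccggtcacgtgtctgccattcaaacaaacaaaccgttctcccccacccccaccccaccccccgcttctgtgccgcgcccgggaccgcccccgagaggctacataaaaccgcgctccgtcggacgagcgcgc
Dusp5: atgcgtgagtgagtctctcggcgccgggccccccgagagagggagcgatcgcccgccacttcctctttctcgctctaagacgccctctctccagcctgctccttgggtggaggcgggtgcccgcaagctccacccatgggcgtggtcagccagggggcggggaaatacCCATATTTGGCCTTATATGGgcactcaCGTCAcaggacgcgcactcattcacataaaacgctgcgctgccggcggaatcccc
Errfi1: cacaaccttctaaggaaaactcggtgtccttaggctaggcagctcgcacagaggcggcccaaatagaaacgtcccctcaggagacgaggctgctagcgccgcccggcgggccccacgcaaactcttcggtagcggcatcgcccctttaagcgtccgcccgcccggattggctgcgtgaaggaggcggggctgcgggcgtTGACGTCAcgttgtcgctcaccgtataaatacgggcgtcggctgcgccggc
Dusp2: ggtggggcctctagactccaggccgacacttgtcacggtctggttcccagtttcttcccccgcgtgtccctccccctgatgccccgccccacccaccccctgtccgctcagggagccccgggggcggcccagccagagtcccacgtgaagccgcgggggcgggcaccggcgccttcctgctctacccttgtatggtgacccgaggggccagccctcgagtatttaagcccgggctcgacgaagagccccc
Counted from the start, the Dusp1 window held a full CRE from position −143 and a separate CRE core (TGACG) from −191. The Errfi1 window held a full CRE from −51. The Dusp5 window held a pair of adjoining CArG boxes, from −82 and −72, and a CRE core on the opposite strand from −55. Dusp2 had no match in the bases shown and a core from base 6 after the start.

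The full CRE was thus present in 2 of the 9 windows, and in 1.79% of all 32851 windows of the table. A CArG box was present in 1 of the 9 and in 1.63% of all windows. The core was present in the windows of Dusp1, Dusp2, Dusp5 and the second Errfi1 start, and in 20.8% of all windows. The ETS site was present in 14.9% of all windows, and in this set only in that of Spry2. The AP-1 site and the E-box had no match in this set, and were present in 7.81% and 16.3% of all windows. Spry2 had an ETS site that began at base 34 after its start, and Dusp6, Dusp10, Spry1 and the first Errfi1 start had no match to any of the motifs. These matches describe letters, and no binding was measured.

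**Figure D1:**
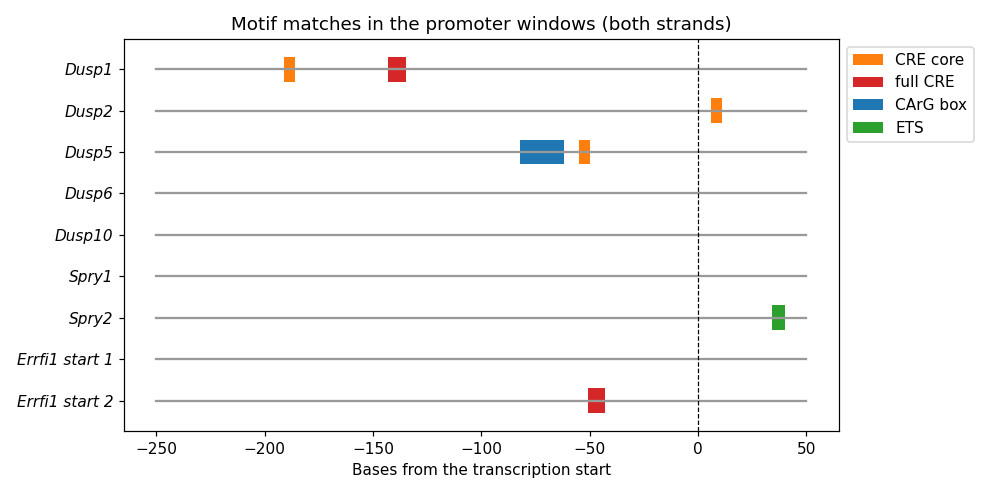
Motif matches in the 9 promoter windows of 8 genes, by distance in bases from the annotated transcription start (dashed line). Coloured blocks are matches on either strand; where a full CRE is drawn it covers the cores inside it. Full CREs lie before the starts of Dusp1 and Errfi1 and the adjoining CArG boxes before that of Dusp5.

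Levels are given on the deposited log2 scale, so that a difference of 1 is a doubling. They are given as mean ± SD of 3 arrays, and arrays are listed in the order of replicates 1, 2 and 3. Differences come from limma with 1 coefficient per group, with the standard error (SE) of the fit. A gene was called risen or fallen at a Benjamini-Hochberg adjusted p under 0.05 over all 18193 genes. Nothing in the labels says that the passages were independent cultures of separate origin, so the p-values measure the spread between these triplicates. Array medians ran from 4.003 to 4.157 without cycloheximide and from 4.2 to 4.24 with it. All 10 muscle markers were measured, and at 144 h 8 had risen and 1 had fallen against 0 h. Myod1 lay between 9.14 and 10.9 in all group means, Myog went from 5.64 at −24 h to 12.5 at 144 h, and Myf5, a marker of undifferentiated myoblasts, fell from 8.35 at 0 h to 5.86 at 144 h. The differentiation markers Myh3 and Mef2c were as low as 3.61 and 4.37 in their lowest group. All 4 measured adipocyte markers and all 4 measured bone and cartilage markers stayed below 4.5 in every group, as did the leukocyte markers Ptprc, Cd68 and Itgam, while Cd3e ran from 5.17 to 5.67. Ptprc and Itgam were among the genes called higher with cycloheximide at 1 h, at group means of at most 3.53 and 3.42. Of the smooth muscle markers, Acta2 was at 13.3 to 13.7, Smtn at 7.12 to 8.23, Cnn1 at 5.79 to 7.27 and Myh11 at 3.07 to 3.35, and Smtn and Acta2 were called risen at 48 h. In bulk RNA, fewer cells of a type and less RNA per cell cannot be told apart.

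Over the 12 differentiation times together, 9 of the 10 genes differed from 0 h by the F-test, against 38.2% of all genes. The smallest adjusted p-values were those of Errfi1 (7.59e-10), Dusp1 (5.77e-08) and Dusp4 (1.5e-06), and Spry4 missed the threshold (adjusted p = 0.227). Dusp2 passed it (adjusted p = 0.034), although no single time was called for it. Dusp6 passed it too without a call at any single time. The calls of the other genes lay between 0.5 h and 1.5 h or from 24 h on. The early calls were rises of Dusp1, Dusp5, Dusp10 and Errfi1. Late on, Spry1 was called risen from 24 h and Spry4 only at 48 h. Spry2 was called fallen at 48 h and 96 h, Dusp4 and Errfi1 at 96 h and 144 h. The late counts were not far from the shares of all genes called. After 24 h, 1 of the 10 was called, against 14%, and after 48 h 3, against 26.7%. After 96 h it was 4, against 32.6%, and after 144 h 3, against 28.4%.

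**Figure D2:**
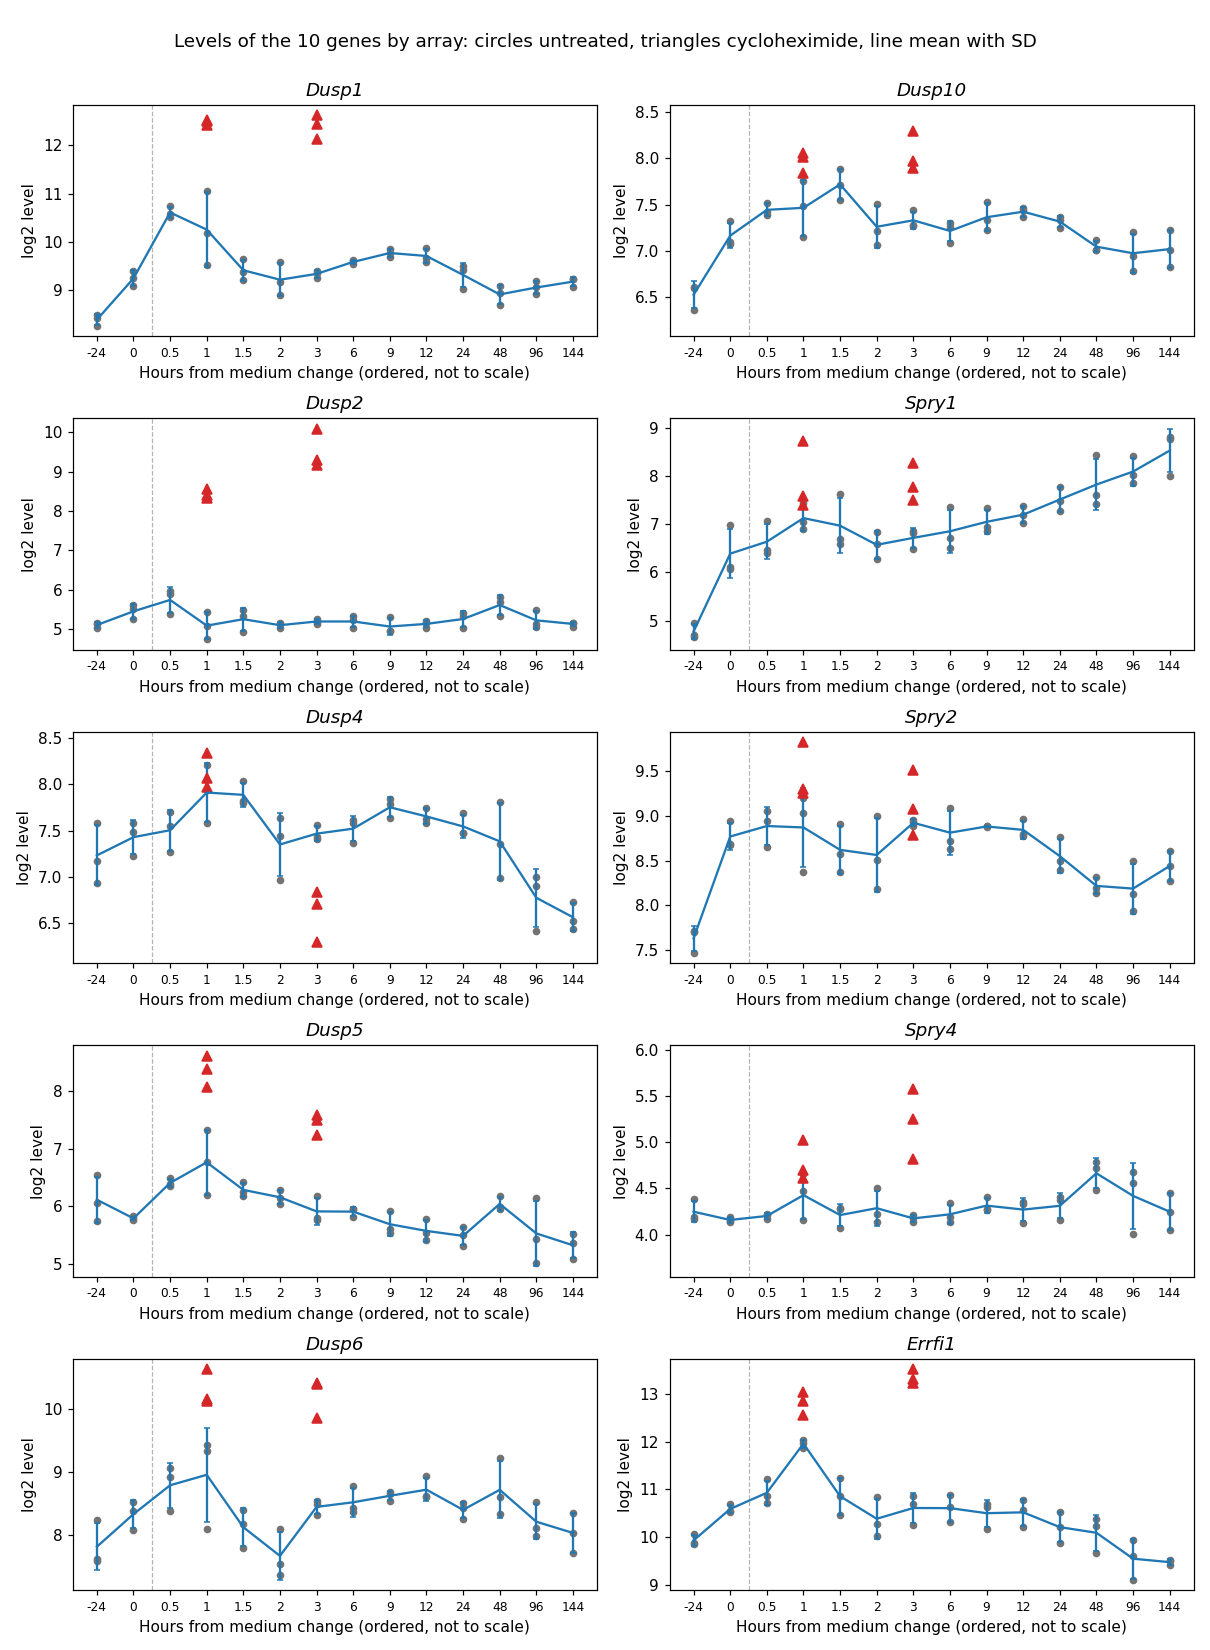
Log2 level (vertical axis, own scale in each panel) of each gene on every array against hours from the medium change, in order and not to scale. Circles are untreated arrays, the line joins group means with SD (n = 3), triangles are cycloheximide arrays, and the dashed line marks the medium change. Dusp1 peaks at 0.5 h and Errfi1 at 1 h, Spry1 climbs to 144 h, and all cycloheximide arrays of Dusp2 lie above all its untreated ones.

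Already over the day in growth medium before the change, 5 of the 10 genes rose and 0 fell, against 7.26% of all genes risen. Spry1 measured 4.96, 4.71 and 4.66 at −24 h and 6.98, 6.12 and 6.07 at 0 h. Its rise of 1.62 (SE 0.31) was the largest of the set, a 3.07-fold difference with an adjusted p of 0.000223. Spry2, at 7.47, 7.72 and 7.71, went to 8.69, 8.68 and 8.94, a rise of 1.14 (SE 0.19, adjusted p = 4.52e-05). Both groups were separate for both genes. Dusp1 rose by 0.86 (SE 0.20), Dusp10 by 0.64 (SE 0.13) and Errfi1 by 0.66 (SE 0.22). The Errfi1 call (adjusted p = 0.0393) was lost without any 1 of the 6 arrays, at adjusted p from 0.0506 to 0.147. It was also lost with the mean of its probe sets (0.0585) and with centring on housekeeping genes (0.207). That centring moved the median difference of all genes from 0.013 to −0.153. Myog rose over the same day, from 5.64 to 10.2. The part of that change in the result was not tested.

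Dusp1, which encodes a nuclear phosphatase of p38, JNK and ERK, was the first to rise. It measured 9.41, 9.08 and 9.25 at 0 h and 10.6, 10.7 and 10.5 at 0.5 h. The groups were far apart, and the rise of 1.36 (SE 0.20, 2.58-fold, adjusted p = 0.000498) was the only call among the 10 genes at 0.5 h, where 0.0385% of all genes had risen. The call was kept without any 1 of the 6 arrays. At 1 h its arrays spread widely, at 11.1, 9.52 and 10.2, and the mean rise was 1.01 (SE 0.20, adjusted p = 0.00951). By 1.5 h the level was 9.42 ± 0.22, and its arrays overlapped those of 0 h. From 6 h to 12 h all 9 arrays lay between 9.54 and 9.88, above all 3 arrays of 0 h, but the differences of 0.34 to 0.53 were not called. In order of level, the 0.5 h and 1 h groups stood highest among the untreated groups and overlapped, and −24 h stood lowest at 8.39 ± 0.11, below every other array.

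Errfi1, the receptor inhibitor, peaked at 1 h. It measured 10.6, 10.5 and 10.7 at 0 h, 10.7, 10.9 and 11.2 at 0.5 h, and 11.9, 12.0 and 12.0 at 1 h. The rise at 1 h was 1.37 (SE 0.22, 2.58-fold, adjusted p = 0.000414), and the arrays of 1 h lay above every other untreated array of the gene. From 1 h to 1.5 h the level fell by 1.10 (SE 0.22, adjusted p = 0.0313) to 10.9 ± 0.39, where 0.044% of all genes fell. That step was compared after the values had been seen, and its call was lost without any of 5 of the 6 arrays, at adjusted p from 0.115 to 0.778. The call was also lost with the mean of the Errfi1 probe sets (−0.97, adjusted p = 0.128) and with only the 6 arrays compared. At 2 h the level was back at 10.4 ± 0.42.

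Dusp5, an ERK phosphatase of the nucleus, rose with them. Its 0 h arrays were tight at 5.82, 5.79 and 5.76, and those of 1 h were 7.33, 6.19 and 6.77. The rise at 1 h of 0.97 (SE 0.21, adjusted p = 0.0322) completed the 3 genes called at that time, where 0.137% of all genes rose. All 3 arrays at 0.5 h, 1.5 h and 2 h were also above those of 0 h, by 0.62, 0.49 and 0.37 on average, without a call. The calls at 1 h depended on single arrays: without replicate 1 of 1 h only Errfi1 was called, with Dusp1 at 0.61 (adjusted p = 0.264) and Dusp5 at 0.69 (adjusted p = 0.39). The same held without replicate 2 or 3 of 0 h, with Dusp1 at adjusted p of 0.14 and 0.056. Dusp5 was also lost without replicate 1 of 0 h (0.098) or replicate 3 of 1 h (0.135). With only the 6 arrays compared, Errfi1 alone was called, and 0.066% of all genes in place of 0.192%.

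One array of the 1 h group stood low for most of the set. Its second replicate was the lowest of the 3 for 8 of the 10 genes and the highest for none. Replicate 2 was also the lowest for 8 of the 10 with cycloheximide at 1 h, and for 7 at 2 h and with cycloheximide at 3 h. In the remaining groups it was the lowest for 1 (−24 h, 24 h, 96 h and 144 h) to 6 (0 h and 1.5 h). The same count was not made over all genes, so these counts do not set the 10 genes apart from other genes. Fos, the immediate early gene that is a standard marker of growth factor signalling, measured 9.99, 7.67 and 8.29 on the untreated 1 h arrays, and Myc 8.30, 7.51 and 8.31. Dusp6 measured 9.33, 8.10 and 9.43 there, so its mean rise of 0.62 (SE 0.26, adjusted p = 0.827) had 2 arrays above the 0 h range of 8.08 to 8.53 and 1 within it. All 3 calls at 1 h were kept without replicate 2 of 1 h. The source of this spread was not tested.

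Dusp10, the phosphatase of the stress kinases, was highest among the untreated groups at 1.5 h. It measured 7.32, 7.07 and 7.10 at 0 h and 7.89, 7.72 and 7.55 at 1.5 h, a rise of 0.55 (SE 0.13, adjusted p = 0.0392), where 0.209% of all genes rose. The groups were separate, but the call was lost without any of 4 of the 6 arrays, at adjusted p from 0.137 to 0.25, and in 4 of the 8 other settings. Dusp4, a nuclear phosphatase of ERK and JNK, had all arrays of 1.5 h (8.04, 7.80 and 7.83) above the highest array of 0 h (7.582). At 1 h its arrays were 7.94, 7.583 and 8.21, so the lowest was level with that 0 h array. The Dusp4 differences of 0.48 at 1 h and 0.46 at 1.5 h were not called. Dusp6, the cytoplasmic ERK phosphatase, was lowest of all groups at 2 h, at 7.54, 7.37 and 8.10, where its difference from 0 h was −0.66 (SE 0.26, adjusted p = 0.416).

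Between 2 h and 12 h none of the 10 genes was called by limma. Genes of the set with an unadjusted p under 0.05 numbered 1 for 2 h, 0 for 3 h and 6 h, 3 for 9 h and 2 for 12 h. The share of all genes called at the adjusted threshold was 0.517% for 2 h, 0.39% for 3 h and 0.506% for 6 h. It was 1.36% for 9 h and 2.82% for 12 h. The share of all genes with an unadjusted p under 0.05 was not counted. The unadjusted counts therefore cannot be set against these shares. At 9 h the largest of the 3 limma p-values, 0.0418 for Dusp2, ranked 1676 by p among 18193 genes. Blocking on the replicate number, Spry1 was called at 9 h (0.66, adjusted p = 0.0174) and at 12 h (0.81, adjusted p = 0.00194), and no other setting called a gene of the set at these times. From 1 h to 3 h, Errfi1 fell by 1.35 (SE 0.22, adjusted p = 0.000387), Dusp1 by 0.92 (SE 0.20, adjusted p = 0.0116) and Dusp5 by 0.85 (SE 0.21, adjusted p = 0.0328). These 3 falls compare with 0.467% of all genes fallen. The Dusp1 and Dusp5 falls were lost without replicate 1 of 1 h (adjusted p = 0.193 and 0.298), Dusp1 also without replicate 2 of 3 h (0.0567), and Dusp5 without replicate 3 of 1 h or replicate 1 or 3 of 3 h (0.0895 to 0.203).

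**Figure D3:**
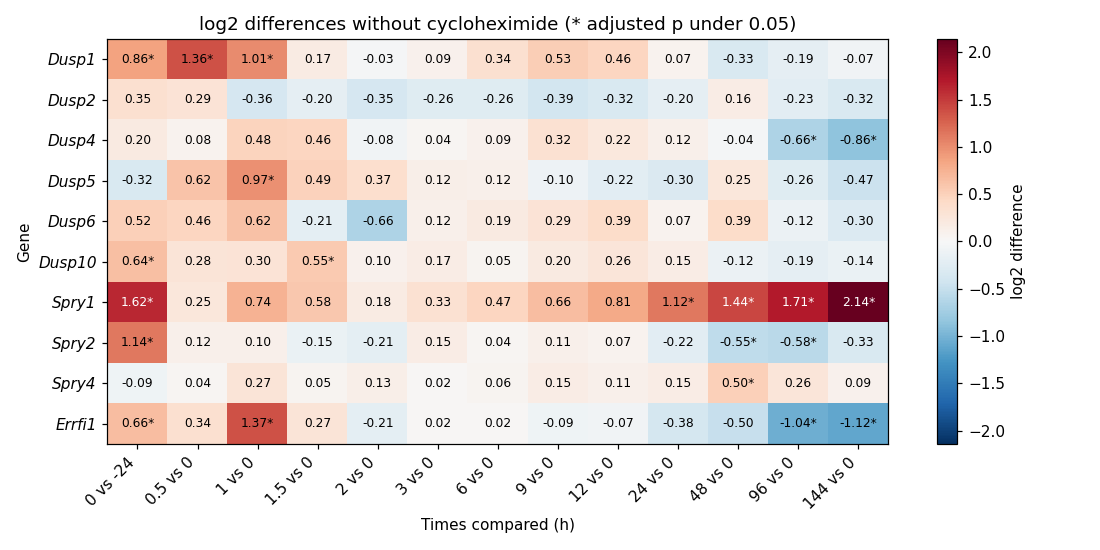
Log2 differences of the 10 genes (rows) for 0 h against −24 h and for each differentiation time against 0 h (columns), coloured from blue (lower) to red (higher), with an asterisk where the adjusted p was under 0.05. The calls fall in 3 blocks, before the medium change, from 0.5 h to 1.5 h, and from 24 h on. The 12 columns on the right share the same 0 h arrays.

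Spry1 was the one gene of the set that went on rising. Against 6.98, 6.12 and 6.07 at 0 h, it measured 7.78, 7.49 and 7.28 after 24 h and 8.44, 7.62 and 7.42 after 48 h. After 96 h its arrays were at 8.42, 8.02 and 7.85, and after 144 h at 8.81, 8.78 and 8.01. All 12 of these late arrays lay above the 3 of 0 h. Against 0 h it rose by 1.12 at 24 h (SE 0.31, adjusted p = 0.0107), where it was the only one of the 10 called and 6.56% of all genes rose. The rise was 1.44 (adjusted p = 0.000448) after 48 h, 1.71 (3.3e-05) after 96 h and 2.14 (6.26e-07, 4.41-fold) after 144 h, with 12.4%, 15.5% and 13.5% of all genes risen. From 24 h to 144 h it rose by a further 1.02 (SE 0.31, adjusted p = 0.0196), where 7.5% of all genes rose. The order of group means from 2 h to 144 h was the order of time, but neighbouring groups overlapped. The 24 h call was lost without replicate 2 or 3 of 0 h or replicate 1 of 24 h (adjusted p from 0.0627 to 0.0743). The step from 24 h was lost without replicate 2 or 3 of 24 h or replicate 1 or 2 of 144 h (0.0573 to 0.102). The first replicate was the highest of the 3 for Spry1 in all 16 groups, and for Myog in 14 of the 16.

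The other Sprouty genes were called at fewer of the late times. Spry2 fell by 0.55 (SE 0.19, adjusted p = 0.0305) at 48 h, from arrays of 8.69, 8.68 and 8.94 to 8.32, 8.14 and 8.20, and by 0.58 (SE 0.19, adjusted p = 0.0181) at 96 h, where its arrays were 8.49, 7.94 and 8.13. It was not called at 144 h, at −0.33. After a further quantile normalization the adjusted p was 0.0642 at 48 h and 0.0523 at 96 h, and with housekeeping centring 0.0978 and 0.106. With the mean of the Spry2 probe sets it was 0.226 and 0.426. The 48 h call was also lost without replicate 3 of 0 h or replicate 2 or 3 of 48 h (up to 0.138), and that of 96 h without replicate 3 of 0 h or replicate 2 of 96 h (up to 0.124). Spry4 was dim, at 4.14, 4.195 and 4.15 at 0 h, and rose by 0.50 (SE 0.15, adjusted p = 0.0105) at 48 h, where its arrays were 4.79, 4.72 and 4.48. Without replicate 1 of 48 h its adjusted p was 0.0565. Spry4 was not called at 96 h (0.26) or 144 h (0.09). It was called at 96 h without replicate 3 of that time (0.46, adjusted p = 0.0177). With housekeeping centring it was called at both times (0.52, adjusted p = 0.00732, and 0.46, adjusted p = 0.0125). That centring moved the median difference of all genes from 0.074 to 0.338 at 96 h and from 0.035 to 0.409 at 144 h. It called 53.6% and 64.4% of all genes, in place of 32.6% and 28.4%. Spry1 and Spry4 were the 2 genes risen and Spry2 the 1 gene fallen at 48 h, when 14.3% of all genes fell.

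Errfi1 and Dusp4 ended below their 0 h levels. Errfi1 measured 9.11, 9.93 and 9.61 at 96 h and 9.41, 9.52 and 9.49 at 144 h, below all 3 arrays of 0 h. It fell by 1.04 (SE 0.22, adjusted p = 0.000256) at 96 h and by 1.12 (SE 0.22, adjusted p = 0.000103) at 144 h. At 48 h its fall of 0.50 was called only with the replicate number as a block (adjusted p = 0.0435, against 0.0914). Dusp4 measured 7.58, 7.22 and 7.48 at 0 h, 6.42, 7.01 and 6.90 at 96 h, and 6.44, 6.73 and 6.52 at 144 h. It fell by 0.66 (SE 0.19, adjusted p = 0.00557) and 0.86 (SE 0.19, adjusted p = 0.00033), and without replicate 1 of 96 h the earlier call was lost (adjusted p = 0.0643). With Spry2, 3 genes had fallen at 96 h, when 17.1% of all genes fell, and 2 at 144 h, when 14.9% fell. From 24 h to 144 h Dusp4 fell by 0.98 (SE 0.19, adjusted p = 0.000158) and Errfi1 by 0.73 (SE 0.22, adjusted p = 0.0177), with 6.98% of all genes fallen. The Errfi1 step was lost with housekeeping centring (0.147) and without replicate 2 or 3 of 24 h or replicate 1 of 144 h (0.0502 to 0.133). The centring moved the median step of all genes from −0.023 to 0.205. Dusp5 had all arrays of 144 h below those of 0 h, at −0.47 (SE 0.21), but was not called (adjusted p = 0.101). It was called with only the 6 arrays compared (adjusted p = 0.0405), and at 96 h its difference of −0.26 became −0.57 without replicate 2 of that time (adjusted p = 0.0449). Dusp1, Dusp2, Dusp6 and Dusp10 differed from 0 h by less than 0.4 in either direction at each time from 24 h to 144 h, without a call. Dusp6 at 48 h was called with housekeeping centring (0.57, adjusted p = 0.0415). At 48 h that centring moved the median difference of all genes from 0.06 to 0.247.

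Cycloheximide is used to find genes that can be switched on without new protein. It raised 7 of the 10 genes at 1 h and 8 at 3 h, and lowered Dusp4 at 3 h. Of all genes, 24.2% rose at 1 h, 30.9% rose at 3 h and 3.42% fell at 3 h. The median difference of all genes was 0.20 at 1 h and 0.19 at 3 h as deposited, and −0.01 and −0.02 after quantile normalization of all arrays again. With that normalization the share of risen among all called genes moved from 98.3% to 65.2% at 1 h and from 90% to 53.7% at 3 h. It called 5 of the 10 genes at 1 h, with 6.78% of all genes called in either direction in place of 24.6%, and 9 at 3 h, with 24.1% in place of 34.4%. The median difference of the 10 genes was 0.82 at 1 h and 1.33 at 3 h.

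Dusp2, a nuclear phosphatase known as an early response gene of activated immune cells, responded most. It was low in all untreated groups, whose means ran from 5.06 to 5.74. With cycloheximide it measured 8.39, 8.33 and 8.56 at 1 h, against 5.44, 5.08 and 4.74 without, a difference of 3.34 (SE 0.18, 10.1-fold, adjusted p = 5.38e-16). At 3 h it measured 9.28, 9.17 and 10.1, against 5.26, 5.13 and 5.18, a difference of 4.32 (SE 0.18, 20.0-fold, adjusted p = 1.65e-20). After quantile normalization again the differences were 3.04 and 4.08. Within the drug the level rose by a further 1.09 (SE 0.18, adjusted p = 3.91e-05) from 1 h to 3 h, where 7.2% of all genes rose.

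Dusp1 was at 12.5, 12.4 and 12.5 with the drug at 1 h and at 12.5, 12.1 and 12.6 at 3 h. No untreated array of the gene was above 11.1. The differences from untreated cells were 2.23 (SE 0.20, 4.7-fold, adjusted p = 1.38e-10) and 3.06 (SE 0.20, 8.35-fold, adjusted p = 4.38e-15). From 1 h to 3 h the level with the drug moved by −0.09 (adjusted p = 0.881), while that of untreated cells fell by 0.92. A test of the change in drug effect did not call it (0.83, SE 0.28, adjusted p = 0.105), but did without replicate 2 of untreated 1 h (1.20, adjusted p = 0.00186).

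Errfi1 measured 13.1, 12.6 and 12.9 with the drug at 1 h and 13.3, 13.2 and 13.5 at 3 h. The drug effect was 0.86 (SE 0.22, adjusted p = 0.00383) at 1 h, on top of the untreated peak, and 2.74 (SE 0.22, 6.7-fold, adjusted p = 9.71e-13) at 3 h. The effect grew by 1.88 (SE 0.31, adjusted p = 8.45e-05), where 2.65% of all genes had an effect that rose from 1 h to 3 h. The untreated level fell by 1.35 over the same hours and the level with the drug moved by 0.54 (SE 0.22, adjusted p = 0.121), so most of the change lay in the untreated cells. Blocking on the replicate number, the step within the drug was called (adjusted p = 0.0494). The effect at 1 h was not called after housekeeping centring (0.66, adjusted p = 0.133). Dusp2 also had an effect that grew, by 0.98 (SE 0.26, adjusted p = 0.0182), but this was lost without untreated replicate 1 of 1 h (0.0805), drug replicate 2 of 1 h (0.0544) or drug replicate 3 of 3 h (0.11). The Dusp2 call was also lost with only the arrays compared (0.153).

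The ERK phosphatases Dusp5 and Dusp6 also rose with the drug. Dusp5 measured 8.08, 8.61 and 8.38 at 1 h and 7.23, 7.58 and 7.49 at 3 h with cycloheximide, effects of 1.59 (SE 0.21, adjusted p = 6.05e-07) and 1.53 (SE 0.21, adjusted p = 3.51e-07). Its level fell by 0.92 (SE 0.21, adjusted p = 0.00217) within the drug between the times, close to the fall of 0.85 without it. Dusp6 measured 10.2, 10.1 and 10.6 at 1 h and 10.4, 9.85 and 10.4 at 3 h with the drug, above all of its untreated arrays. Its effects were 1.35 (SE 0.26, adjusted p = 0.000192) and 1.78 (SE 0.26, adjusted p = 8.65e-07). Dusp10 rose by 0.51 (SE 0.13, adjusted p = 0.00422) and 0.72 (SE 0.13, adjusted p = 3.3e-05). Its effect at 1 h was not called after quantile normalization (0.20, adjusted p = 0.426) or housekeeping centring (0.31, adjusted p = 0.179), nor without untreated replicate 2 of 1 h (adjusted p = 0.0678). It was also not called with the mean of its probe sets (0.10, adjusted p = 0.49) or with only the arrays compared (adjusted p = 0.0765).

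Dusp4 went the other way. With cycloheximide it measured 8.07, 7.97 and 8.34 at 1 h, overlapping the untreated arrays (0.21, adjusted p = 0.415, and −0.09 after quantile normalization again), and 6.71, 6.29 and 6.84 at 3 h, below the untreated 7.43, 7.57 and 7.41. The difference at 3 h was −0.86 (SE 0.19, adjusted p = 0.000376), and −1.23 after quantile normalization again. The step within the drug was −1.51 (SE 0.19, adjusted p = 1.31e-07), the largest fall of the set, where 4.63% of all genes fell. The drug effect changed by −1.07 (SE 0.26, adjusted p = 0.00996) between the times, and 1.64% of all genes had an effect that fell. Without untreated replicate 2 of 1 h the adjusted p of that change was 0.0535.

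Among the Sprouty genes, Spry1 measured 8.74, 7.41 and 7.59 with the drug at 1 h, overlapping the untreated 7.44, 6.91 and 7.04 (0.79, SE 0.31, adjusted p = 0.0589; without any of 3 of the 6 arrays it was called, at 0.0276 to 0.0489). At 3 h its 8.27, 7.498 and 7.77 lay above the untreated 6.85, 6.48 and 6.82, an effect of 1.13 (SE 0.31, adjusted p = 0.00421). Spry4 measured 5.58, 5.25 and 4.82 at 3 h with the drug, against 4.14, 4.18 and 4.21 without, an effect of 1.04 (SE 0.15, adjusted p = 7.63e-07). It was the highest level of Spry4 in any group. Within the drug its step from 1 h to 3 h of 0.44 was not called (adjusted p = 0.0506), but was with the replicate number as a block (0.022), which called 5 of the 10 genes in that step in place of 3, and 18.1% of all genes in place of 11.8%. Spry2 rose by 0.59 (SE 0.19, adjusted p = 0.0237) at 1 h and was not called at 3 h (0.20, adjusted p = 0.448, and −0.05 after quantile normalization). Its call at 1 h was lost after quantile normalization (adjusted p = 0.35) and housekeeping centring (0.28), and without untreated replicate 2 (0.239) or drug replicate 3 (0.168) of 1 h. It was also lost with the mean of its probe sets (0.178) and with only the arrays compared (0.141).

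**Figure D4:**
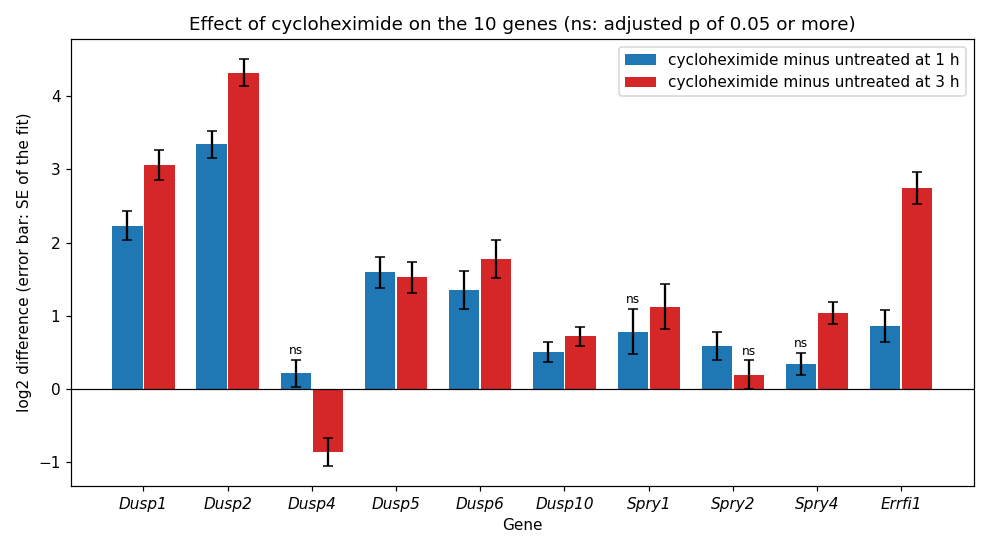
Log2 difference between cycloheximide and untreated cells at 1 h (blue) and 3 h (red) for each gene, with the SE of the fit (n = 3 arrays in each group); ns marks an adjusted p of 0.05 or more. Dusp2 has the largest difference at both times, Errfi1 the largest growth from 0.86 to 2.74, and Dusp4 is below 0 at 3 h.

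The other probe sets of the genes were read separately, with p-values adjusted over all non-control probe sets. The second Errfi1 probe set followed the first over the 16 groups (Pearson's r = 0.995 across group means that share arrays). It rose by 1.21 at 1 h (adjusted p = 0.0121), fell by 1.03 at 144 h (adjusted p = 0.000942) and rose by 2.99 with the drug at 3 h (adjusted p = 8.93e-13). All 4 Spry4 probe sets were dim without the drug. They had correlations of 0.801 to 0.931 with each other, and all 4 rose with the drug at 3 h, by 0.36 to 1.56. The second probe sets of Dusp10 and Spry2 stayed at or under 4.65 and 4.51 in all group means and were called in none of the comparisons. Their correlations with the brighter probe sets were 0.203 and −0.357, so the Dusp10 and Spry2 results rest on 1 probe set each.

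**Figure D5:**
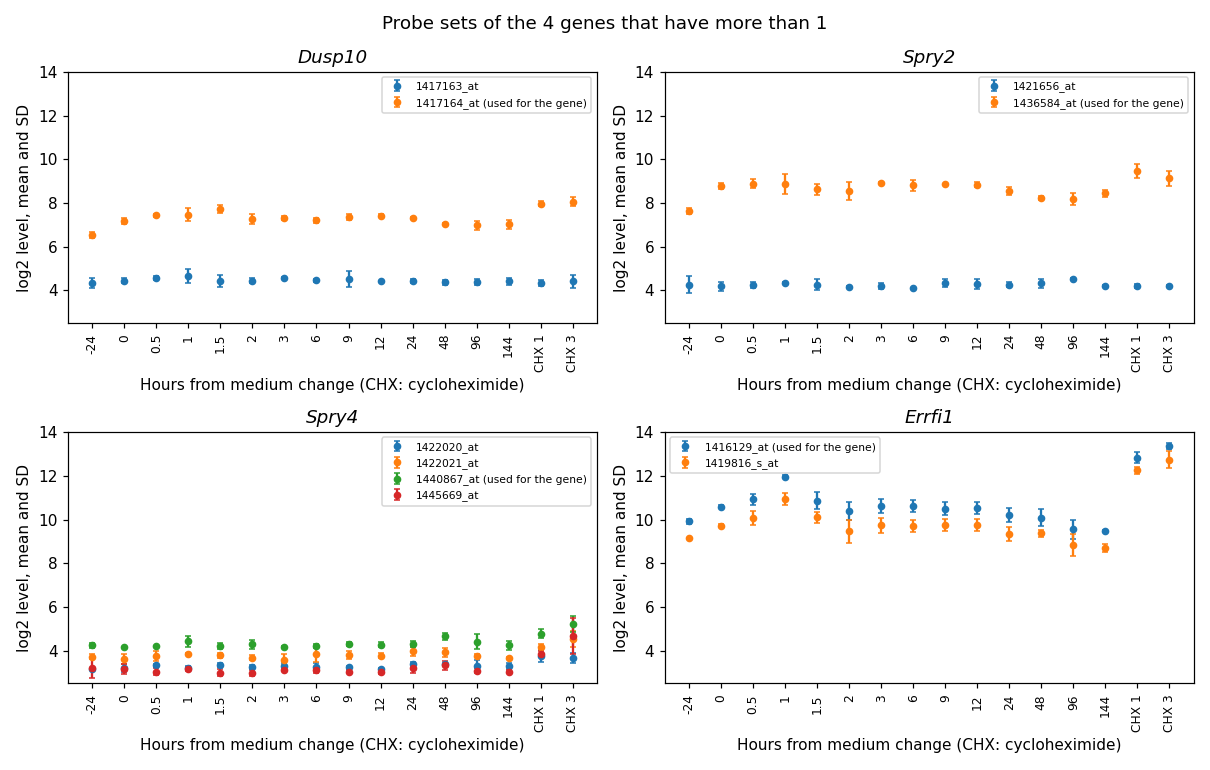
Log2 level, mean with SD of 3 arrays, of every probe set of Dusp10, Spry2, Spry4 and Errfi1 in the 16 groups; CHX is cycloheximide. Both Errfi1 probe sets trace the same course, while the second probe sets of Dusp10 and Spry2 lie flat below 5.

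The rest of the pathway was counted in lists by role. At 1 h against 0 h, 0 of 14 other dual specificity phosphatases, 13 other feedback inhibitors, 18 ligands, 12 receptors, 10 adaptor and Ras genes and 16 kinases measured were called by limma in either direction. At an unadjusted p under 0.05 there were 3 of the phosphatases, 2 ligands, 2 adaptor and Ras genes and 0 of the feedback inhibitors, receptors and kinases. The share of all genes at that cut was not counted, so these counts have no share to be set against. The unadjusted limma p of 0.0549 for Dusp2 at 1 h ranked 1053 by p among 18193 genes. Of 17 measured ERK target genes 6 rose, including Fos by 1.80 (SE 0.29), Egr2 by 1.41 (SE 0.22) and Egr1 by 1.15 (SE 0.15), which encode transcription factors, and Myc by 0.99 (SE 0.22). Of all genes, 0.137% rose at 1 h. From 1 h to 3 h, 8 of the ERK target genes fell, Fos by 1.54 and Egr1 by 1.29, against 0.467% of all genes. Dusp1, Dusp5 and Errfi1 were called at the same hour. Of the listed genes, 10 of 13 adaptor and Ras genes and 16 of 20 kinases were measured, and the others were not analysed here.

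Over the day before the medium change, 5 of 12 receptors rose, among them Fgfr4 by 1.78 (SE 0.19), Pdgfrb by 1.03 (SE 0.10) and Fgfr1 by 0.70 (SE 0.12). For comparison, 7.26% of all genes rose over that day. Of the other feedback inhibitors 2 of 13 rose, Il17rd (Sef), which limits fibroblast growth factor receptor signalling, by 1.31 (SE 0.14) and Lrig1, a receptor inhibitor, by 0.59 (SE 0.14). Their rise fell in the same day as the rises of Spry1 and Spry2.

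By 144 h, 6 of 13 other feedback inhibitors fell and 0 rose, with Rasa1, a GTPase activating protein of Ras, at −1.35 (SE 0.36), the Sprouty relatives Spred1 and Spred2 at −0.81 (SE 0.16) and −0.64 (SE 0.15), and the ubiquitin ligase gene Cbl at −0.53 (SE 0.11). Of 14 other dual specificity phosphatases 6 rose and 1 fell, with Dusp28 at 2.2 (SE 0.16), Dusp3 at 1.47 (SE 0.16) and Dusp14 at 0.78 (SE 0.22) risen, and Dusp11 at −0.62 (SE 0.19). For all genes the shares were 13.5% risen and 14.9% fallen, and the difference between the lists was not tested. Dusp3, a small phosphatase of ERK and JNK, had already risen by 1.07 (SE 0.16) at 24 h.

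Ligands and receptors also changed by 144 h. The hepatocyte growth factor gene Hgf fell by 3.18 (SE 0.25), Fgf7 fell by 2.11 (SE 0.28), and Hbegf, a ligand of the receptors that ERRFI1 inhibits, rose by 2.38 (SE 0.20). In all, 3 of 18 ligands rose and 5 fell, against 13.5% of all genes risen and 14.9% fallen. Of 12 receptors 4 rose and 3 fell, with Erbb3 at 3.45 (SE 0.46), Erbb2 at 0.99 (SE 0.25) and Pdgfra at −2.04 (SE 0.21). Among 16 kinases 3 rose and 3 fell, with Mapk12, the muscle form of p38, at 1.98 (SE 0.14) and Araf at 1.35 (SE 0.13). Of 17 ERK target genes 2 rose and 7 fell, with the cyclin gene Ccnd1 at −3.35 (SE 0.19), Fosl1 at −2.51 (SE 0.23) and Plaur at −2.26 (SE 0.24).

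With cycloheximide at 3 h, 13 of 17 ERK target genes rose and 0 fell, Myc by 4.06 (SE 0.22), Fos by 3.98 (SE 0.29) and Junb by 2.98 (SE 0.42). Of 14 other dual specificity phosphatases 10 rose and 0 fell, with Dusp8 at 2.10 (SE 0.12), Dusp16 at 2.06 (SE 0.13) and Dusp14 at 1.77 (SE 0.22). All of these compare with 30.9% of all genes risen. Dusp8 and Dusp16 encode phosphatases of JNK and p38. Of 16 kinases 4 rose and 0 fell, and of 12 receptors 3 rose and 3 fell, where 3.42% of all genes fell.

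The likeness between the genes depended on the drug groups. Over the 16 group means the closest pair was Dusp1 and Dusp6 (r = 0.934), followed by Dusp1 and Errfi1 (0.921), and Dusp2 had correlations of 0.838 to 0.888 with Dusp1, Dusp6, Spry4 and Errfi1. Over the 14 groups without cycloheximide these became 0.694 for Dusp1 and Dusp6, 0.716 for Dusp1 and Errfi1, and between 0.0485 and 0.356 for Dusp2. Dusp4 and Errfi1 moved the other way, from 0.258 over 16 groups to 0.835 over 14, the closest pair without the drug. Dusp10 and Spry2 were alike with and without the drug groups (0.869 and 0.826). The group means come from separate arrays of one cell line, and the coefficients are descriptions.

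Other genes were ranked by the same measure among those with an SD of at least 0.3 over the group means. Genes with clone-type or provisional names, such as LOC, Gm, Rik or BC, were left out of the ranking, so one of them may lie nearer. Over 16 groups, Btg2, an antiproliferative early response gene, was most like Dusp1 (r = 0.971), Bdkrb2 most like Dusp2 (0.986), Pim3 and Phlda1 most like Errfi1 (0.983 and 0.975) and St3gal5 most like Spry1 (0.961). Over the 14 groups without the drug, Btg2 stayed first for Dusp1 (0.931) with Fos next (0.852), and Pim3 and Phlda1 stayed first for Errfi1 (0.948 and 0.911). The nearest genes of Dusp5 became Ereg and Myc (0.873 and 0.836), and that of Dusp6 became Egr1 (0.771). Spry1 was then most like Cacng1, a calcium channel subunit gene of skeletal muscle (0.977). Dusp2, which hardly varied without the drug, had no coefficient above 0.642 there.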

How the data were processed

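Total RNA of C2C12 cells was hybridised to Affymetrix MOE430v2 arrays. The deposited values are log2 expression per probe set; the submitters' processing notes name RMA, a method that corrects background, normalizes between arrays and summarises probes. Its version and the arrays that went into each run are not given in the sources used here. The values were used as deposited. Of 45101 probe sets, 34945 had a single symbol and covered 18193 genes. Each gene was taken from its probe set of highest mean.

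limma 3.58.1 in R 4.3.3 fitted 1 coefficient per group to all 48 arrays (32 residual degrees of freedom) with eBayes. Tests were two-sided, and p-values were adjusted over the 18193 genes in each comparison. The script was tested on simulated data. The members and lists were chosen with earlier results of these data known. Named genes are the 10 members, at most 4 called genes of largest change per list and comparison, the 2 genes nearest each member, and Myog, Fos, Id1 and Myh3 as time markers where a result turned on them; cell type markers are named from their own lists. The lists cover ligands, receptors, adaptors and Ras, kinases, other dual specificity phosphatases, other feedback inhibitors, ERK target genes and cell type markers; 12 housekeeping genes served for centring. Steps between early times and correlations without the drug groups were added after seeing the data.

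Replicate numbers were checked for pairing through deviations from the group means. In 13 of 18 comparisons all 3 same-numbered pairs correlated above 0.1, and 44 of 48 arrays were most like arrays of their own number. The blocked value is given beside a result of those comparisons where it changed the call. Motifs were searched in RefSeq promoter windows with Python. The number of arrays limits the precision.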

Additional observations from a re-analysis of the deposited data

Results flagged for a closer look

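The drug effect differed between 1 h and 3 h for 3 of the 10 genes, by the test of the change itself, against 4.29% of all genes. For Errfi1 the effect at 3 h minus that at 1 h was 1.88, for Dusp2 it was 0.98 and for Dusp4 it was −1.07. The 3 changes differ in where they lie. For Errfi1 the untreated level fell by 1.35 and the level with the drug moved by 0.54. For Dusp2 the level with the drug rose by 1.09 and the untreated level moved by 0.10. For Dusp4 the level with the drug fell by 1.51 and the untreated level moved by −0.44. With housekeeping centring 6 of the 10 genes and 9.76% of all genes were called, while the median change of all genes moved from 0.01 to 0.39.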

How the results depend on the processing

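Each result was recomputed with 8 other settings and without single arrays. The counts over all 12 times were recomputed without all arrays of 1 replicate number instead of single arrays. Of 3140 recomputed values, 3014 stayed on the same side of the threshold, 82 lost a call, 44 gained one and 0 reversed a called direction. The call of 9 genes over all times stayed within 1.5 times in every setting and without all arrays of any 1 replicate number. The calls of 5 over the day before the medium change, of 3 at 144 h and of 9 with the drug at 3 h did so in every setting and without any single array. The count at 1 h against 0 h, 3 in the main fit, was 1 to 3 without single arrays. It was 1 with only the arrays compared, when 0.066% of all genes were called in place of 0.192%. The count at 24 h was 0 to 1 without single arrays. The sum of calls over the 12 times, 16, was 9 to 13 without all arrays of 1 replicate number. With the drug at 1 h the count fell from 7 to 4 with housekeeping centring, and the share of all genes called from 24.6% to 4.13%. The change in drug effect went from 3 to 6 with that centring, and from 4.29% to 9.76% of all genes. From 1 h to 3 h the count of 3 became 5 with that centring, with 2.72% of all genes called in place of 1.1%. It was 1 with only the arrays compared, with 0.0934% of all genes called, and 1 to 3 without single arrays. From 24 h to 144 h the count was 1 to 3 without single arrays. With the replicate block the step within the drug went from 3 to 5, and from 11.8% to 18.1% of all genes. The block also called Spry1 at 1 h (0.74, adjusted p = 0.038), and with the drug at 1 h (0.79, adjusted p = 0.000518), comparisons in which not every pair correlated above 0.1, Errfi1 at 1 h against 0.5 h (1.03, adjusted p = 0.00673), and Spry4 in the change of drug effect (0.69, adjusted p = 0.0219). Beside these and the calls given with the results, it changed no other call. The cause of these shifts was not tested. Leaving out arrays also makes the sample smaller. The filter on dim probe sets left 10491 genes and all 10 members.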

Other observations

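Other genes of the pathway moved as well. Fgf21 rose by 3.62 (SE 0.72) at 24 h and stood at 2.78 (SE 0.72) above 0 h at 144 h. Igf1, a growth factor of muscle, rose by 2.47 (SE 0.66) over the day before the medium change, while Ereg, an epidermal growth factor receptor ligand, fell by 1.11 (SE 0.30) over that day and rose by 2.31 (SE 0.30) with cycloheximide at 3 h. Grb2, the adaptor that links receptors to Ras, rose by 0.93 (SE 0.12) at 144 h, and Nras fell by 0.72 (SE 0.20).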
